A study of Camelus dromedarius with 10 samples.

Results

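P4HB, PDIA4, ERP29, PRKCSH, SSR3 and RPN2 encode proteins of the endoplasmic reticulum (ER) that help secretory proteins to enter this compartment, fold and receive their sugars. These 6 genes, of 22444 gene IDs counted in the dromedary camel supraoptic nucleus (SON), were chosen from the genes that differed between water-deprived and control camels in these same libraries, so the difference between the groups is described here and not tested. Each gene was found through the Ensembl ID that the study's gene table pairs with its symbol: P4HB is ENSCDRG00005009507, PDIA4 is ENSCDRG00005012733, ERP29 is ENSCDRG00005020068, PRKCSH is ENSCDRG00005012807, SSR3 is ENSCDRG00005001758 and RPN2 is ENSCDRG00005018669. No genome of the build used for counting was at hand, so no coordinates or sequences are given.

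RNA was taken from the rostral part of the SON of male dromedaries of 4 to 5 years. The control group (CON, n = 5) drank freely, and the water deprivation group (WD, n = 5) had no water for 20 days. Each library comes from 1 animal and is named by its group and animal number, and the RNA is that of whole tissue punches. In such bulk samples fewer cells of a type and less RNA per cell cannot be told apart.

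Proteins made for secretion pass through a channel in the ER membrane while they are being translated. Inside, disulphide bonds are formed and rearranged by protein disulphide isomerases, sugar chains are attached by the oligosaccharyltransferase and trimmed by glucosidases, and unfinished chains are held by chaperones. The magnocellular neurones of the SON make vasopressin and oxytocin in large amounts as precursors that take this route, and the unfolded protein response (UPR) is the pathway by which cells adjust the folding machinery to its load.

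Libraries held 1665098 to 8126641 counts, but 5 gene IDs that each exceeded 1% of a library took 27.7% to 76.1% of them. The counts outside these IDs, taken here as the depth of a library, ran from 397495 in CON13 and 1106575 in WD6 to 5872137 in WD9. Depth in this sense also carries the share of the dominant IDs, which was 76.1% in CON13, 73.8% in WD6 and 27.7% in WD9. In total counts WD6, with 4227685, was close to CON2, with 4233342. The amount of sequencing and the dominant share were not separated. Levels are CPM, counts scaled to 1 common library size, after TMM normalization, which corrects for such dominant genes. CON13 held 285 counts of the 6 genes together, and WD9 held 9866.

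The 6 genes were all higher in WD camels than in controls, by 1.52-fold to 1.88-fold. Summed over the 6 genes, the level was 433 ± 65.2 CPM in controls and 726 ± 114 CPM in WD (mean ± SD, n = 5 each). The sums ran from 339 to 495 CPM in controls and from 635 to 853 CPM in WD, so the groups did not overlap. As a share of the counts outside the dominant IDs, the 6 genes took 0.0717% to 0.0971% of a control library and 0.123% to 0.168% of a WD library.

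P4HB encodes a protein disulphide isomerase that is also the beta subunit of prolyl 4-hydroxylase. Its level was 92.5, 79.0, 87.1, 98.0 and 58.3 CPM in CON2, CON3, CON4, CON5 and CON13, and 144, 164, 120, 166 and 143 CPM in WD6, WD7, WD8, WD9 and WD15. Every WD library lay above every control library, with CON13 lowest among controls and WD8 lowest among WD. The mean was 83.0 ± 15.5 CPM in controls and 147 ± 19.1 CPM in WD, a log2 fold change of 0.81 (SE 0.17).

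PDIA4 encodes another disulphide isomerase of the ER lumen. It measured 77.5, 68.2, 77.9, 87.9 and 70.2 CPM in CON2, CON3, CON4, CON5 and CON13, and 102, 145, 111, 162 and 117 CPM in WD6, WD7, WD8, WD9 and WD15. The groups did not overlap, and the WD libraries were spread more widely than the controls, with a coefficient of variation of 19.8% against 10.2%. The log2 fold change was 0.74 (SE 0.17), from 76.3 ± 7.78 CPM to 127 ± 25.2 CPM.

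ERP29 encodes a lumenal protein with a thioredoxin-like fold that aids the folding of secretory proteins. Its level was 27.2, 32.0, 36.5, 40.9 and 20.2 CPM in CON2, CON3, CON4, CON5 and CON13, and 52.9, 75.0, 56.7, 75.5 and 42.5 CPM in WD6, WD7, WD8, WD9 and WD15. The groups came close without overlapping, since WD15, the lowest WD library, stood just above CON5, the highest control. ERP29 had the largest log2 fold change of the 6, 0.91 (SE 0.21), from 31.4 ± 8.06 CPM to 60.5 ± 14.4 CPM. It also rested on the fewest counts, with 17 in CON13.

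PRKCSH encodes the beta subunit of glucosidase II, which trims glucose from newly attached sugar chains. It stood at 58.8, 52.0, 60.8, 53.0 and 47.6 CPM in CON2, CON3, CON4, CON5 and CON13, and at 87.3, 89.9, 75.5, 86.8 and 77.3 CPM in WD6, WD7, WD8, WD9 and WD15. Both groups were narrow, with coefficients of variation of 9.85% in controls and 7.81% in WD, and they did not overlap. The log2 fold change, 0.60 (SE 0.15), was the smallest of the 6, from 54.4 ± 5.36 CPM to 83.4 ± 6.51 CPM.

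RPN2 encodes a subunit of the oligosaccharyltransferase. Its level was 87.5, 112, 138, 126 and 89.2 CPM in CON2, CON3, CON4, CON5 and CON13, and 162, 230, 161, 214 and 137 CPM in WD6, WD7, WD8, WD9 and WD15. The groups overlapped here, because WD15 lay just below CON4. The mean was 110 ± 22.2 CPM in controls and 181 ± 39.3 CPM in WD, a log2 fold change of 0.70 (SE 0.19).

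SSR3 encodes the gamma subunit of the translocon-associated protein complex, which sits beside the protein channel. It measured 70.5, 80.5, 94.9, 89.1 and 53.5 CPM in CON2, CON3, CON4, CON5 and CON13, and 92.0, 149, 129, 143 and 119 CPM in WD6, WD7, WD8, WD9 and WD15. WD6 lay below CON4, so the groups overlapped, while the other WD libraries were above all controls. The log2 fold change was 0.69 (SE 0.19), from 77.7 ± 16.4 CPM to 126 ± 22.6 CPM.

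**Figure D1:**
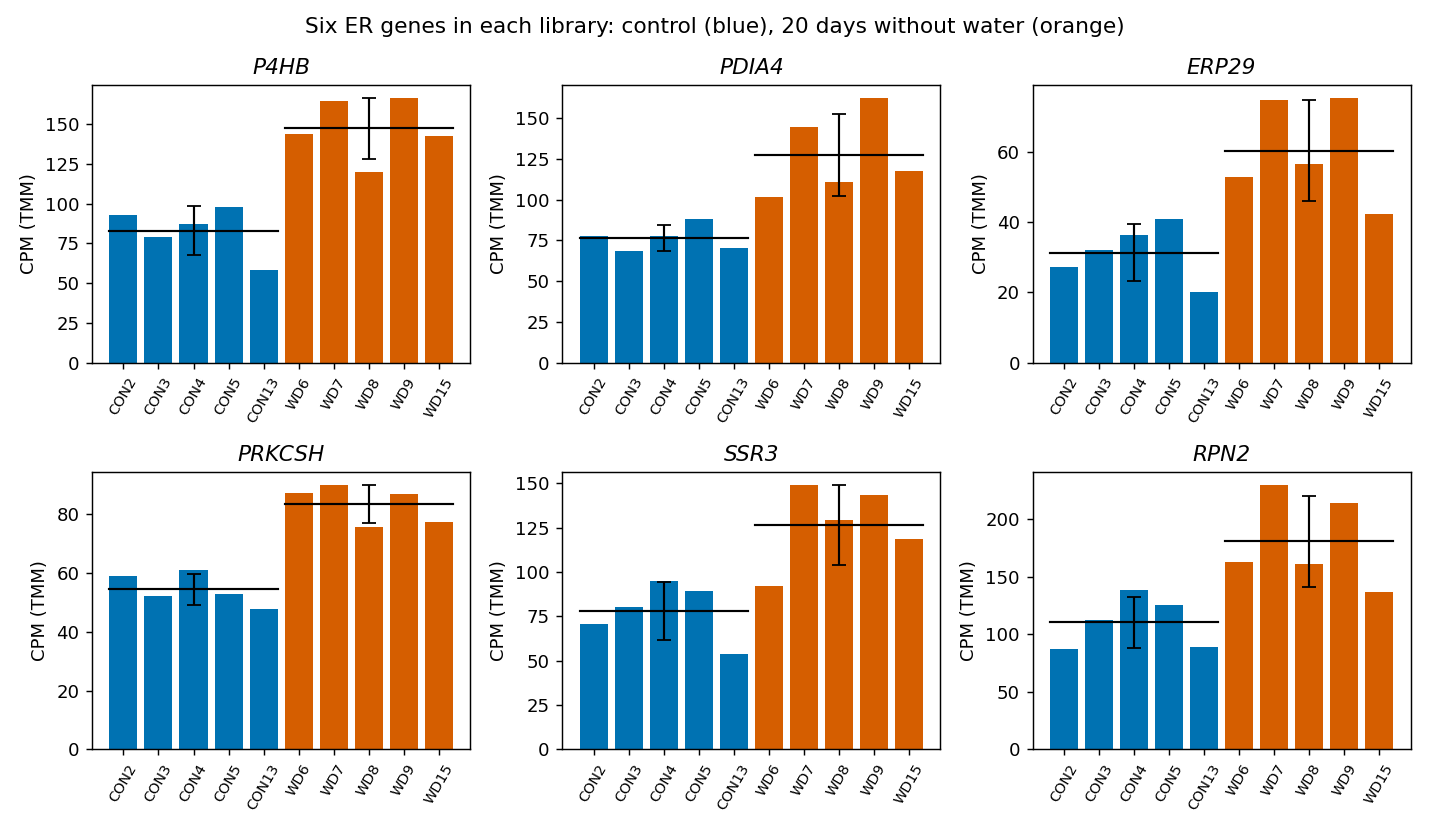
Level of each of the 6 genes (bars, CPM after TMM normalization, axes from 0) in the 5 control libraries (blue) and the 5 WD libraries (orange), with the group mean (horizontal line) and SD (error bar). The groups do not overlap for P4HB, PDIA4, ERP29 and PRKCSH, and 1 WD library falls below the highest control for SSR3 (WD6) and RPN2 (WD15).

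The 4 genes whose WD libraries all lay above the controls compare with 194 of the 14432 genes tested, 1.34%, that did so. By edgeR's quasi-likelihood test 1 of the 6 genes, P4HB, passed an adjusted p of 0.05, where 0.27% of all genes tested passed as higher in WD. By DESeq2's Wald test, the kind of test by which the genes were chosen, all 6 passed, against 0.638% of genes as higher in WD. Nearest to the threshold of 0.05 among the 6 stood RPN2 and SSR3, with adjusted p of 0.0305 and 0.0249 by DESeq2. Of the other ER and UPR genes with an ID, BCAP31 at 0.0768 and SSR1 at 0.0783 stood just outside it. SELENOS, which the study also reported as differing, had no ID paired with its symbol here and was not measured. Inside the threshold stood 5 that are not among the 6: SDF2L1, PPIB, KDELR2, ERN1 and ATF4, the last nearest to it at 0.0445. These values repeat the choice of the genes, and nothing is read from them.

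The count passing edgeR's test moved with the fit. Without WD6 it was 4, where 0.336% of all genes tested passed as higher in WD, and without WD15 it was 1, against 0.228%. Without any one of the other 8 libraries (CON2, CON3, CON4, CON5, CON13, WD7, WD8 and WD9) it was 0, and 20 to 32 of all genes then passed as higher, beside 39 with all libraries. With a covariate for libraries of low or high depth all 6 passed, where 0.845% of genes passed as higher in WD, and with RNA integrity as a covariate 5 passed, against 0.485%. With fragment size group as a covariate 2 passed, against 0.291% of all genes, and 3 passed among genes of at least 10 counts in every library, against 0.396%. None of the 6 passed with no filter, with library totals only or with CON13 and WD6 left out together, where 0.182%, 0.0485% and 0.268% of all genes passed as higher in WD. The log2 fold changes themselves stayed between 0.53 and 1.10 for the 6 genes over all 22 settings.

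The proportions of the 6 genes to each other were similar in the 2 groups. P4HB made up 19.1 ± 2.08% of the summed counts of the 6 in controls and 20.4 ± 1.90% in WD, and ERP29 made up 7.14 ± 0.90% and 8.26 ± 0.91%. The mean share of the other 4 was lower in WD, with PRKCSH at 12.7 ± 1.44% and 11.6 ± 1.37%, and PDIA4, SSR3 and RPN2 differing less, at 17.8% and 17.5%, 17.8% and 17.4%, and 25.4% and 24.7%. The shares overlapped between the groups for all 6 genes.

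Within each group, animals with more of one gene tended to have more of the others. Each library's log2 CPM was taken as its deviation from the mean of its own group, which removes the difference that chose the genes, and pairs of genes were correlated over the 10 libraries. All 15 pairs correlated positively, with Pearson's r from 0.41 to 0.92 and a median of 0.66. Each gene's median r with the other 5 lay between 0.56 (PRKCSH) and 0.74 (ERP29), and its median r with the other 14426 genes tested between 0.04 and 0.09. Of those genes, 8.14% (ERP29) to 19.3% (SSR3) correlated with a member more strongly than its own median with the other 5. In controls and in WD taken apart, the median r was 0.66 and 0.71, and all 15 pairs were positive in each.

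By an exact two-sided permutation test within groups with Benjamini-Hochberg adjustment over the 15 pairs, 2 pairs passed 0.05, both with ERP29. ERP29 and RPN2 had r = 0.92 (p = 0.00153, adjusted p = 0.0229, exact permutation), and r was 0.94 without the 2 libraries whose ERP29 level lay farthest from the median. On ranks within groups Spearman's rho of this pair was 0.80 (p = 0.0192, adjusted p = 0.0958, exact permutation). ERP29 and SSR3 had r = 0.84 (p = 0.0059, adjusted p = 0.0443, exact permutation), 0.68 without those 2 libraries, and a rho of 0.85 (p = 0.00931, adjusted p = 0.0958, exact permutation). No pair passed on ranks, where 4 passed an unadjusted p of 0.05 against 8 by Pearson's r. Without the 2 farthest libraries of each pair, r ran from -0.14 (PRKCSH and SSR3) to 0.94, with a median of 0.38.

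The same animals were high or low for most of the genes. CON4, CON5, WD7 and WD9 had the 4 highest mean standardized deviations, 0.78, 0.72, 0.91 and 0.90, and CON13 had the lowest, -1.35. These 4 libraries are also the deepest of the 10, and CON13 is the shallowest. The lowest deviation among WD libraries was that of WD15, -0.69.

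Depth within groups moved with the level of 5 of the 6 genes. SSR3 followed it most closely, with r = 0.95 (p = 0.000486, adjusted p = 0.00292 over the 6 genes, exact permutation) and a rho of 0.90 (p = 0.00431, adjusted p = 0.0186, exact permutation). ERP29 had r = 0.82 (adjusted p = 0.024, exact permutation), and P4HB, RPN2 and PDIA4 had r of 0.76, 0.68 and 0.67 (adjusted p = 0.0484, 0.0484 and 0.0408, exact permutation). PRKCSH had r = 0.55 (adjusted p = 0.146, exact permutation), with 0.80 among the controls and 0.08 among the WD libraries. On ranks SSR3, ERP29 and PDIA4 passed, and without CON13 and WD6, the libraries farthest from the median depth, r ran from 0.53 for P4HB to 0.85 for SSR3.

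Over the other 14426 genes tested, the median r with depth was 0.09. An r above that of SSR3 was seen in 0.693% of them, above that of ERP29 in 8.63% and above that of PRKCSH in 26.9%. After the deviations were regressed on log2 depth, the median r of the 15 pairs was 0.30, with 13 of 15 pairs positive. ERP29 and RPN2 kept r = 0.86 and P4HB and PRKCSH had 0.63, while SSR3 turned to -0.40 with P4HB and -0.37 with PRKCSH. The part of depth in the shared variation of the 6 genes was not tested beyond these values.

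**Figure D2:**
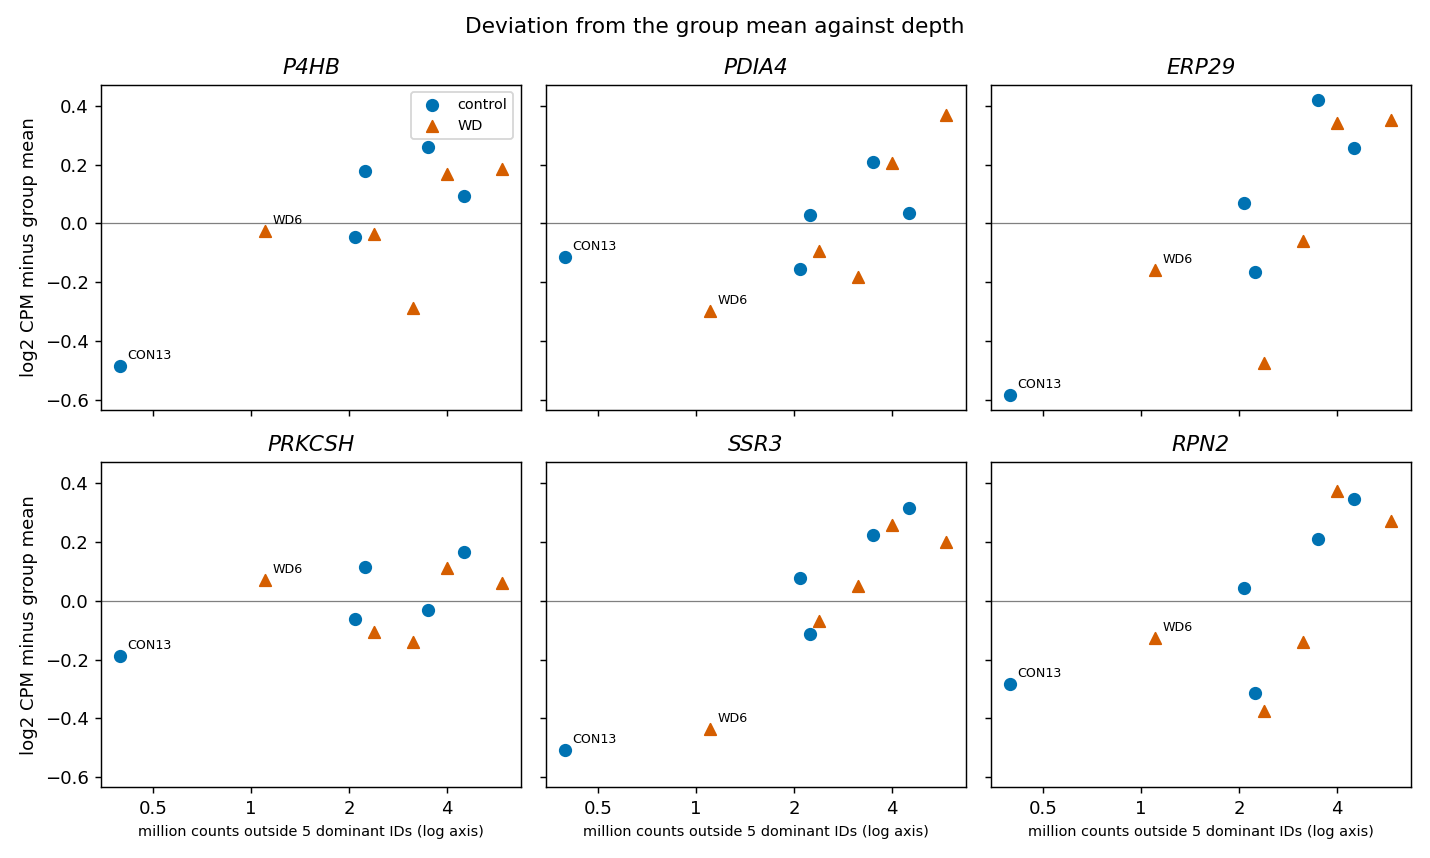
Deviation of log2 CPM from the mean of its group (vertical axis) against the counts outside the 5 dominant gene IDs (horizontal, log axis) for each of the 6 genes, with controls as circles and WD as triangles. The relation is tightest for SSR3 (r = 0.95) and loosest for PRKCSH (r = 0.55), where the shallow library WD6 (0.07) lies above the deepest, WD9 (0.06).

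**Figure D3:**
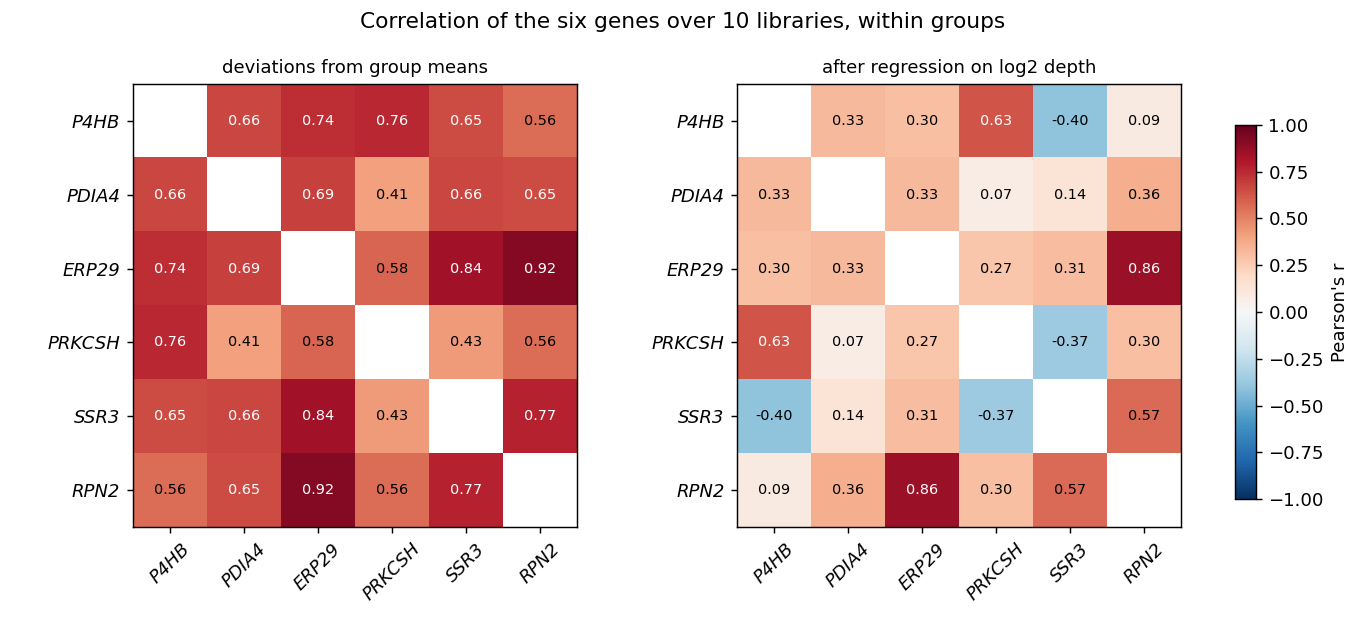
Pearson's r of each pair of the 6 genes over 10 libraries, for deviations from the group means (left) and for the same deviations after regression on log2 depth (right). All 15 pairs are positive on the left (0.41 to 0.92), and 13 on the right, where ERP29 with RPN2 keeps 0.86.

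The genes with a symbol whose deviations were most like the mean profile of the 6 over the 10 libraries included an ER partner of a member and a cochaperone. FNDC3A came first (r = 0.98), followed by the kinase gene CDC42BPA (0.97), then SSR1 (0.97), which encodes the alpha subunit of the complex that holds SSR3. USP14, a deubiquitinase gene (0.97), SCG3, encoding a granin of secretory granules (0.96), UGCG, encoding glucosylceramide synthase (0.95), OGA, encoding the enzyme that removes O-linked N-acetylglucosamine (0.95), DNAJB9, which encodes an ER cochaperone (0.95), and SLC35E3 (0.94) came next. These 9 genes also followed depth, with r from 0.85 to 0.96. Of these genes SCG3 was called higher in WD (log2 fold change 1.34, SE 0.28), and CDC42BPA, UGCG and OGA had log2 fold changes between -0.08 and 0.01.

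Other genes of the same pathway were taken from 7 lists of ER and UPR genes. Of 109 genes listed, 40 had an ID, and 39 of these were tested. For 32 the ID came only from the study's table of all genes, of which the shortened copy used here holds the genes of lowest p in this comparison, so their differences were in part selected with the ID. All of these 32 were higher in WD, where 49.7% of the 1552 tested genes of that copy were. Over the 39, 38 were higher (all 39 with library totals only, with depth group as a covariate or without CON3), 1 was called, and the median log2 fold change was 0.52, beside 0.02 over all genes tested and 0.72 over the 6.

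The called gene was SDF2L1, which encodes a partner of lumenal chaperones. It stood at 10.8, 14.3, 12.2, 11.1 and 9.51 CPM in CON2, CON3, CON4, CON5 and CON13, and at 26.9, 34.9, 24.9, 31.4 and 26.3 CPM in WD6, WD7, WD8, WD9 and WD15. The lowest WD library was well above the highest control. Its log2 fold change was 1.29 (SE 0.19, adjusted p = 0.00313 by edgeR), larger than that of any of the 6 genes, and it stayed called with each library left out in turn.

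Among the chaperones, all 10 tested were higher, with log2 fold changes from 0.36 to 1.29, and only SDF2L1 was called. HSPA5, encoding the main lumenal Hsp70 chaperone BiP, had 0.44 (SE 0.20, adjusted p = 0.502 by edgeR), and CALR, encoding calreticulin, had 0.59 (SE 0.20, adjusted p = 0.282 by edgeR). PPIB, encoding a prolyl isomerase of the ER, had 0.82 (SE 0.20, adjusted p = 0.0858 by edgeR) with groups that did not overlap. No gene of the remaining 6 lists was called.

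The 4 tested genes of oxidative folding had log2 fold changes from 0.48 (PDIA3) to 0.84 (P4HA3). The 5 of the oligosaccharyltransferase and glucosidase list ran from 0.32 (GANAB, the catalytic partner of PRKCSH) to 0.81 (MOGS), with RPN1, another subunit of the transferase that holds RPN2, at 0.40. The 5 of translocation and signal peptide cleavage ran from 0.37 (SEC61A1, the channel itself) to 0.75 (SSR1), and the groups did not overlap for SSR1, SEC61A1 and SRPRA. Each of these 14 genes was higher in WD, and none passed the test.

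The 5 genes of export and retrieval ran from 0.38 (LMAN2) to 0.94 (KDELR2, a receptor that returns ER proteins from the Golgi). The groups did not overlap for KDELR2 and SEC23B, and KDELR2 had an adjusted p of 0.0694 by edgeR. The 3 of ER-associated degradation ran from 0.45 (EDEM2) to 0.71 (ERLEC1). SELENOS of this list had no ID and was not measured.

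The UPR list is the one whose IDs all come from tables of whole gene classes, which were not cut at a low p. Of its 8 genes 7 were tested, and ERN2, with 65 counts over all libraries, did not pass the filter on low counts. ATF4, a transcription factor of the PERK branch, had a log2 fold change of 0.72 (SE 0.20, adjusted p = 0.172 by edgeR), and ERN1, the sensor IRE1, had 0.66 (SE 0.19, adjusted p = 0.194 by edgeR). The sensor gene ATF6 had 0.53, EIF2AK3, which encodes the sensor PERK, had 0.22, and ATF6B, a relative of ATF6, had -0.01. The transcription factor genes DDIT3 and XBP1 had 0.40 and 0.14. With depth group as a covariate, 6 of the 39 genes of the 7 lists were called (SDF2L1, PPIB, SSR1, KDELR2, ERN1 and ATF4), and by DESeq2 5 (SDF2L1, PPIB, KDELR2, ERN1 and ATF4).

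**Figure D4:**
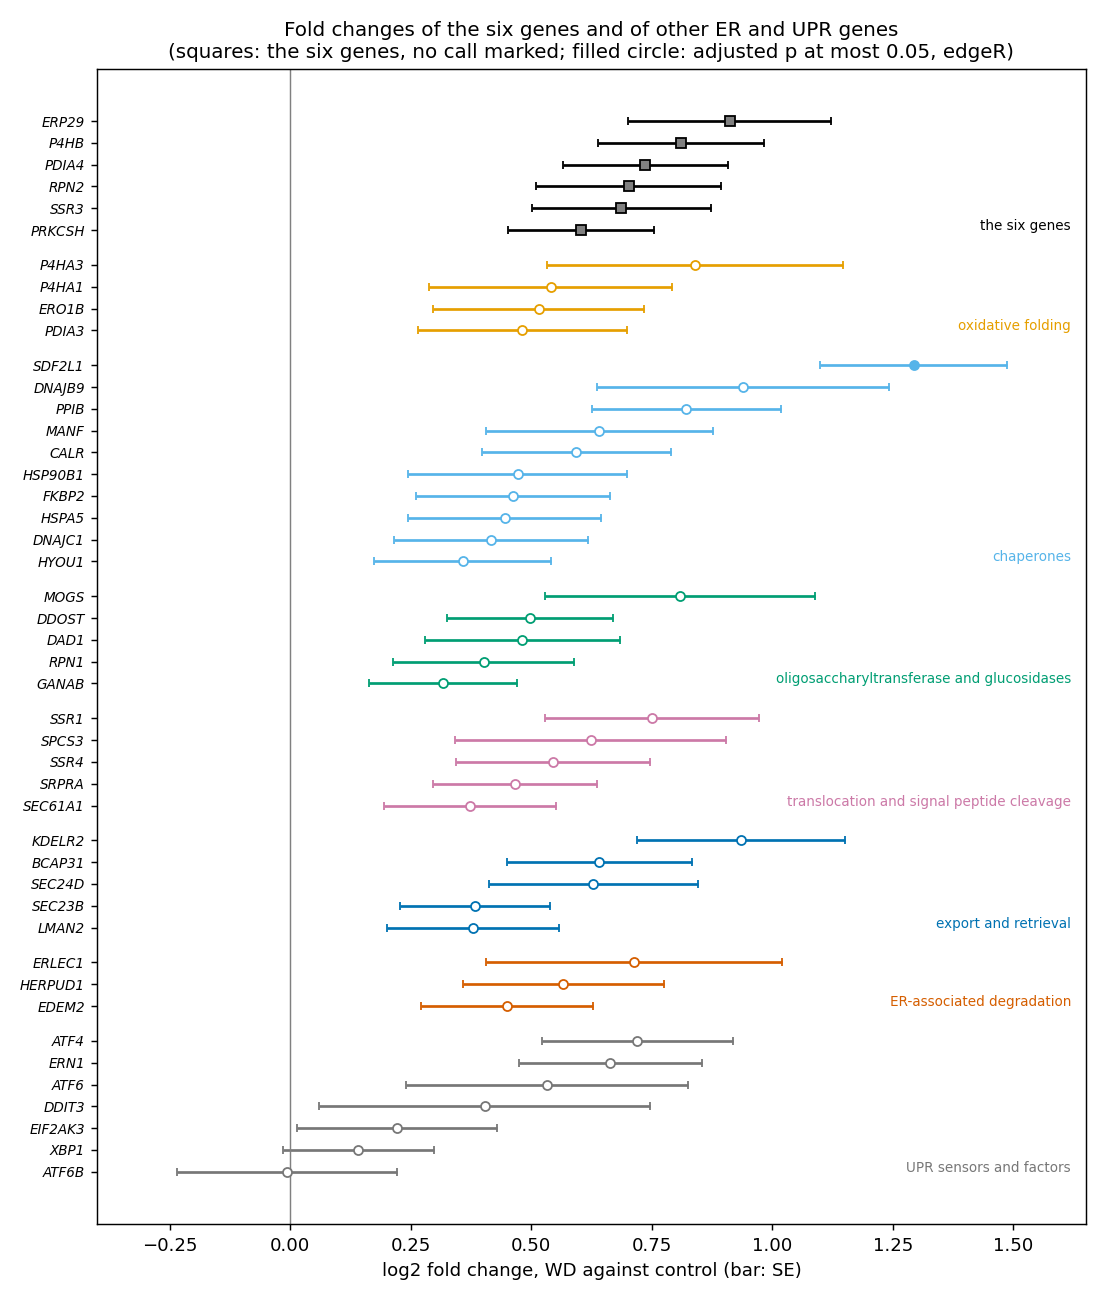
Log2 fold change of WD against control (horizontal axis, bars are SE) for the 6 genes (grey squares, no call marked) and 39 other ER and UPR genes by list (circles, filled where edgeR's adjusted p was at most 0.05). The 6 genes lie between 0.60 and 0.91, SDF2L1 at 1.29 is the filled circle, and XBP1 and ATF6B lie nearest to 0.

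Other genes of the lists were set beside the 6 within groups. The 5 translocation genes had a median r of 0.87 with the mean profile of the 6, and the 10 chaperones 0.77, from -0.35 for DNAJC1 to 0.95 for DNAJB9. The 3 genes of ER-associated degradation had a median of 0.70, the 7 of the UPR 0.54, the 4 of oxidative folding 0.51 (from -0.72 for P4HA3 to 0.81 for PDIA3), the 5 of export and retrieval 0.48, and the 5 of the oligosaccharyltransferase and glucosidase list 0.38 (from -0.25 for MOGS to 0.88 for RPN1). Within the UPR list, ATF4 and XBP1 had 0.79 and 0.74, ATF6B had -0.56 and ERN1 had -0.70. The 9 genes of secretory cargo and its processing had a median of 0.85, from -0.23 for VGF to 0.96 for SCG3. Over all other genes tested the median was 0.07. These are descriptions over 10 libraries that also share depth.

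Several genes for the cargo of this route and its processing showed larger differences than the 6. VGF (log2 fold change 3.99), PCSK1 (2.02), PDYN (1.93), PAM (1.63), SCG2 (1.48) and SCG3 (1.34) were called higher in WD, where 0.27% of all genes tested passed as higher. PCSK2 was called lower (-1.53), and CHGA (0.12) and CPE (0.34) were not called, among 9 tested by edgeR. The IDs of PAM, SCG2 and SCG3 came only from the shortened, low-p copy, so their differences were in part selected with the ID. Of 11 genes listed, CHGB and SCG5 had no ID.

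Markers of other cells in the punches were measured beside these results. All 9 microglial genes tested were higher in WD, with C1QA called, with 6 of the 9 IDs coming only from the shortened, low-p copy, and their summed level was 360 to 562 CPM in controls and 465 to 1782 CPM in WD. These sums overlapped, since WD7 (550) and WD9 (465) lay below CON2, and the highest was that of WD15, with WD8 next at 893 CPM. Of 3 fibroblast and mural genes COL1A1 was called lower, and the sum was 103 to 133 CPM in controls and 66.1 to 105 CPM in WD, which also overlapped. The log2 fold change was -1.04 for COL1A1, -0.86 for COL3A1 and 0.18 for PDGFRB, the mural gene. The sums overlapped between the groups for 2 astrocyte genes, 5 oligodendrocyte genes, 6 endothelial genes and the neuronal gene NEFL, none of which was called. The IDs of NEFL, 1 of 6 neuronal genes listed, and of the astrocyte genes, 2 of 7 listed, came only from the same copy. Some of the log2 fold changes were near those of the 6 genes in size, with -0.63 for NEFL (adjusted p = 0.402 by edgeR), 0.55 and 0.50 for the astrocyte genes ALDH1L1 and GJA1 (adjusted p = 0.39 and 0.502 by edgeR), and 0.62 and 0.64 for the endothelial genes FLT1 and KDR (adjusted p = 0.362 and 0.402 by edgeR). The other endothelial genes had 0.72 (SOX17), 0.19 (ERG), 0.17 (VWF) and -0.06 (TEK). No marker ID was at 0 in every library. Of the tissue check, SIM1 and OTP, transcription factors of neuroendocrine hypothalamus, were present in all libraries, with log2 fold changes of -0.04 and -0.58 (adjusted p = 0.454 by edgeR for OTP), and VIP and NKX2-1, with 32 and 81 counts in all, did not pass the filter. Within groups, the microglial genes had a median r of -0.53 with the mean profile of the 6 genes, from -0.81 for SPI1 to 0.04 for P2RY12. The oligodendrocyte genes had a median of -0.48, and the fibroblast and mural genes -0.38. The astrocyte genes had -0.09, the endothelial genes -0.003 and NEFL 0.05. These values come from libraries that also differ in depth. The part of cell composition in the level of the 6 genes was not tested.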

How the data were processed

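The authors used BBDuk for trimming, STAR for alignment to Camdro2, and FeatureCounts for counting the read pairs of each gene. They deposited whole-number counts per gene for 22444 IDs in 10 libraries, and a second deposited table of signal values, which are the counts divided by DESeq2 size factors and were not used for tests. Strand setting and annotation release are not given in the sources used here, so overlapping genes are uncertain. Each library is 1 animal, and groups follow the labels. Symbols came from the copies of the authors' supplementary tables used here, which pair 4250 IDs with a symbol. The authors' table of all genes was used here in a shortened copy, which holds the first 1819 IDs in order of adjusted p, and its fold changes and p-values were not used.

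WD was compared with control by edgeR 4.0.16 in R 4.3.3 (quasi-likelihood test, robust, TMM, filterByExpr, Benjamini-Hochberg over 14432 genes, threshold 0.05). The SE is the log2 fold change over the square root of F. Log2 CPM used a prior count of 2, and correlations were tested over all 14400 permutations within groups with numpy 2.4.6 (smallest possible p 6.94e-05). DESeq2 1.42.0 and other scalings, filters, covariates (depth group, fragment size group, RNA integrity) and left-out libraries were alternatives. The edgeR and permutation tests were tested on simulated data. The members and lists were chosen with earlier results of these data known. The genes named are the 6 members, the genes of the 7 ER and UPR lists, the 10 genes most like the members' mean profile (1 of which is not reported here), and the cargo and marker lists (neurones, astrocytes, oligodendrocyte lineage, microglia, endothelium, fibroblasts and mural cells, tissue check). P-values rest on the variation between the libraries of these animals only.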

Additional observations from a re-analysis of the deposited data

How the results depend on the processing

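All 6 genes kept a positive log2 fold change in each of the 22 settings, and each value stayed within 1 SD of the main one except that of PRKCSH with library totals only, which was 0.74. This scaling moved the median of all genes from 0.02 to 0.16. The number of the 6 genes passing edgeR's test was 1 (0.27% of all genes passed as higher in WD), and it was 6 by DESeq2 (0.638%), 6 with depth group (0.845%), 5 with RNA integrity (0.485%) and 2 with fragment size group (0.291%) as covariate, 3 with at least 10 counts in every library (0.396%), and 0 with no filter (0.182%) and with library totals only (0.0485%). Leaving out 1 library gave 0 to 4 (4 without WD6). With CON13 and WD6 left out together, a setting chosen after seeing the data, it was 0. The other ER and UPR genes called numbered 1, and 5 by DESeq2, 6 with depth group, 5 with RNA integrity and 2 with fragment size group, and 0 with library totals only and with at least 10 counts in every library, where 31 of them were tested and SDF2L1 was not; leaving out 1 library gave 1 each time. The median r of the 15 pairs, 0.66, was 0.96 with library totals only and 0.30 after regression on depth, and 0.60 to 0.73 with 1 library left out. The median r with depth, 0.72, was 0.93 with library totals only and 0.68 to 0.79 with 1 library left out. The cause of these shifts was not tested. Depth limits the genes most in CON13, where ERP29 had 17 counts. No paired analysis was possible because the 2 groups share no animal number.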
